A study of Mus musculus with 8 samples.

Results

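The 32 genes described here encode the PIWI proteins, the tudor domain proteins that bind them, the enzymes that make PIWI-interacting RNAs (piRNAs), and other proteins of the germ granule and of transposon silencing. The rule that chose them was a list of names and used no measured value. That list was drawn up with earlier results of these data known. All 32 were among the 55421 genes of the count table, and all 32 passed the filter on low counts that left 20477 genes to test.

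In germ cells, long single-stranded transcripts are cut on the outer face of mitochondria and in the surrounding germ granules into piRNAs, which are loaded into PIWI proteins. The loaded PIWI proteins cut transposon transcripts in the cytoplasm or enter the nucleus and direct DNA methylation to transposon copies. Many of the proteins are found mainly in the germ line, and loss of most of them in male mice stops spermatogenesis, at or after the entry into meiosis.

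The libraries came from spermatogonial stem cell (SSC) cultures, undifferentiated spermatogonia of the C57BL/6XDBA/2 hybrid background started from testes of 6-day-old pups and kept on irradiated feeder fibroblasts of another mouse stock, with GDNF and bFGF (10 ng/ml each in the labels) in the growth medium. Complete growth medium without added retinoic acid (RA) served as control (Veh). The RA group had 100 nM of RA added, the vitamin A derivative that starts spermatogonial differentiation. The paper names DMSO as the solvent of RA and does not say, for these libraries, which cultures received it. NR cells were under nutrient restriction, in 10% complete medium and 90% Earle's balanced salt solution (EBSS), and NRRA cells (labelled RA_EBSS) received 100 nM RA in that diluted medium. By the composition that the paper gives, the dilution also lowered GDNF and bFGF. Effects of fewer nutrients and of less growth factor cannot be told apart in NR and NRRA. Each condition lasted 2 days and had 2 libraries, which the study describes as independent biological replicates, and the purpose was to ask whether nutrient restriction and RA together bring cultured spermatogonia into meiosis.

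Total counts were 19261333 to 30023585 per library. A level is given as CPM, the counts of a gene relative to the TMM-scaled library total, or as RPKM, the same value per kilobase of exon, where genes are compared with each other. A difference is a log2 ratio of the conditions from edgeR's quasi-likelihood fit over all 8 libraries with its standard error (SE), and a gene was called higher or lower at a Benjamini-Hochberg adjusted p under 0.05 over the 20477 genes. Replicates lay close together, with a biological coefficient of variation of 3.35%, so that small differences could be called and 43.2% of all tested genes were called between RA and Veh. In bulk RNA of a mixed culture, fewer germ cells and less RNA of a gene per germ cell cannot be told apart.

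Per length of transcript, the 32 genes lay between the 40.3 (*Piwil4*) and the 97.5 percentile (*Fkbp6*) of the tested genes, apart from *Tdrd6* at 2.29. The highest RPKM, as a mean over the 8 libraries, were those of *Fkbp6* (72.4), which encodes a co-chaperone of piRNA loading, *Mael* (62.4), a germ granule protein, *Ddx4* (55.3), the RNA helicase VASA, *Mov10l1* (43.8), the helicase that binds piRNA precursors, and *Piwil2* (40.6). These 5 genes ranked above 94% of the tested genes (94.5 to 97.5 percentile). *Tdrd6*, a component of the chromatoid body of spermatids, was lowest at 0.102 RPKM, with 12 to 22 counts per library. The other PIWI genes were below *Piwil2*, with 2.47 RPKM for *Piwil1* (42.2 percentile) and 2.2 RPKM for *Piwil4* (40.3 percentile).

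**Figure D1:**
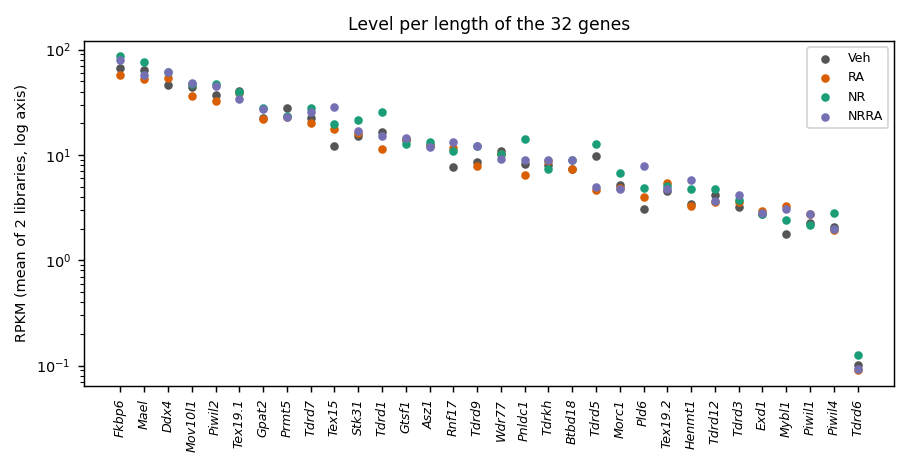
Level per length of the 32 genes (y axis, RPKM on a log axis, mean of 2 libraries per condition), in order of the mean over all 8 libraries, which falls from 72.4 for *Fkbp6* to 0.102 for *Tdrd6*. Colours mark the condition, and for most genes the 4 conditions lie close together beside the distance between genes.

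The direction of change depended on the treatment. In NR vs Veh, 20 of the 32 genes were called higher and 1 lower, together 65.6%, while 43.9% of all tested genes were called, 21.7% higher and 22.2% lower. In NRRA vs Veh, 16 were called higher and 6 lower, against 58.9% of all tested genes called, 30.1% higher and 28.7% lower. In RA vs Veh, 6 were called higher and 9 lower, together 46.9%, beside 43.2% of all tested genes, 19.8% higher and 23.4% lower. The share called after RA alone was near the background. Without RA replicate 2 fewer of the 32 were called higher there, and fewer of all tested genes as well. In NR vs Veh more of the 32 were called lower without Veh replicate 1, where fewer of all tested genes were.

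The same was seen when RA was present in both conditions. In NRRA vs RA, 16 genes were called higher and 2 lower, beside 40.3% of all tested genes, 20.9% higher and 19.4% lower. In NRRA vs NR, where RA was the only difference, 7 were called higher and 12 lower, beside 43.4% of all tested genes, 21.3% higher and 22.1% lower. NR vs Veh and NRRA vs Veh share the Veh libraries, NRRA vs RA shares the NRRA libraries with NRRA vs Veh, and NRRA vs NR shares the NR and NRRA libraries with others, so these counts are not independent of each other. Without NR replicate 2 or without NRRA replicate 2, fewer were called higher in NRRA vs NR, and fewer of all tested genes as well. The lower calls in NRRA vs RA became fewer or were lost without RA replicate 1, RA replicate 2, NRRA replicate 1 or NRRA replicate 2. Those of all tested genes also became fewer there.

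The median log2 difference of the 32 genes was 0.316 in NR vs Veh, where that of all tested genes was 0.006, and 0.141 in NRRA vs Veh (all genes 0.03). It was 0.108 in NRRA vs RA (all genes 0.016). It was -0.066 in RA vs Veh (all genes -0.019) and -0.064 in NRRA vs NR (all genes 0.006), and both of these turned positive, to 0.037 and 0.017, when library totals were used without TMM. That scaling moved the median of all tested genes to 0.083 in RA vs Veh and to 0.143 in NRRA vs Veh, and it changed the split of calls to 10 higher and 8 lower in RA vs Veh (27.1% and 14.8% of all tested genes) and to 10 higher and 9 lower in NRRA vs NR (28.8% and 16.4%). With offsets for GC content and length, the calls were 5 higher and 14 lower in RA vs Veh (16.4% and 27.8% of all tested genes), 18 and 4 in NR vs Veh (17.7% and 29.8%), 12 and 10 in NRRA vs Veh (24.9% and 34.8%), and 13 and 4 in NRRA vs RA (18.9% and 25.8%).

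**Figure D2:**
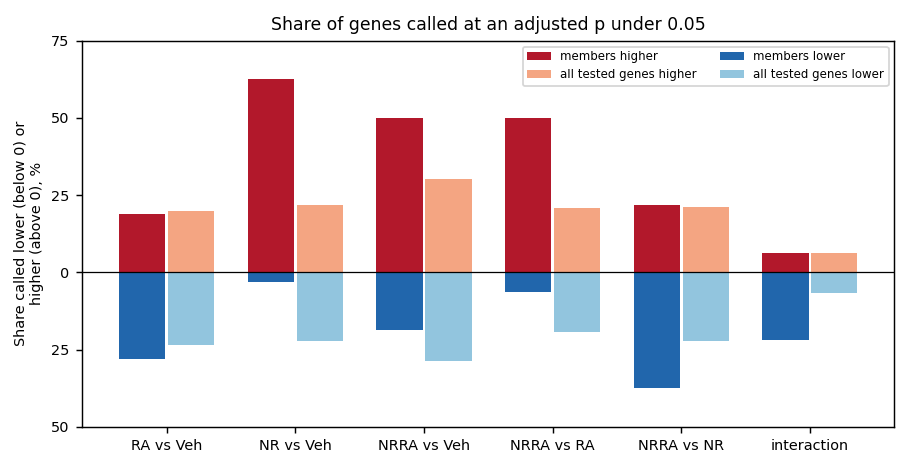
Share of the 32 genes and of all 20477 tested genes called higher (bars above 0) or lower (bars below 0) in each comparison (y axis, percent). In NR vs Veh 20 of the 32 genes were called higher and 1 lower, beside 21.7% and 22.2% of all tested genes.

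Changes were small for most of the genes. A fold of at least 2 with an adjusted p under 0.05 was reached in RA vs Veh by 0 genes upward and 1 downward, *Tdrd5*, beside 4.74% and 2.75% of all tested genes (7.49% together). In NRRA vs Veh it was reached by 2 genes upward, *Pld6* and *Tex15*, and 0 downward, beside 9.91% and 6.02%. In NRRA vs NR it was reached by 0 upward and again by *Tdrd5* downward, beside 4.56% and 4.14% (8.7% together). No gene of the 32 reached it in NR vs Veh, beside 5.33% upward and 2.96% downward, or in NRRA vs RA, beside 4.61% and 3.68%. The libraries of both conditions did not overlap for 22 of the 32 genes in RA vs Veh, beside 68.1% of all tested genes. The count was 28 in NR vs Veh (69% of all tested genes), 28 in NRRA vs Veh (77.3%), 21 in NRRA vs RA (69.9%) and 26 in NRRA vs NR (72.5%).

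**Figure D3:**
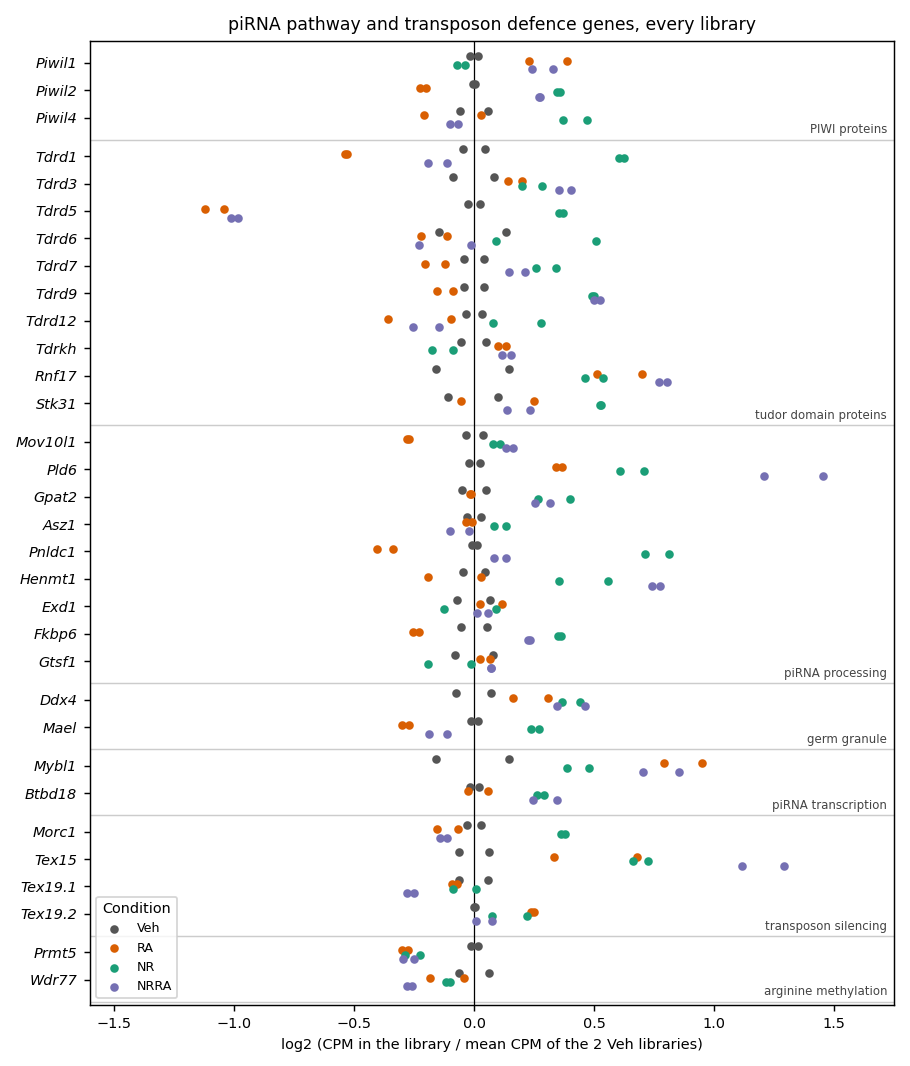
Every library of the 32 genes, grouped by role, as log2 of its CPM over the mean CPM of the 2 Veh libraries (x axis), with 1 point per library and colours for the conditions. The NR points lie right of the Veh points for the 20 genes called higher in NR, and the RA and NRRA points of *Tdrd5* lie about 1 log2 unit to the left.

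The upstream DNA is shown for 6 genes that share a sequence element, the E-box CACGTG, and whose levels moved in different directions. RefSeq windows (GRCm38.p6) of 250 bases before the transcription start were matched for 25 of the 32 genes, and those of *Mybl1*, *Rnf17*, *Tex15*, *Tdrd6*, *Piwil2*, *Pnldc1* and *Morc1* were not analysed here. The stretches are *Tdrd1* chr19:56825959-56826208 (plus strand), *Tdrd9* chr12:111971309-111971558 (plus strand), *Fkbp6* chr5:135350045-135350294 (minus strand), *Pld6* chr11:59787658-59787907 (minus strand), *Stk31* chr6:49395289-49395538 (plus strand) and *Mael* chr1:166238748-166238994 (minus strand) (trimmed where an exon of another transcript of the gene begins). Capitals mark CACGTG and, in *Tdrd9*, also AGGTCA, the core of sites bound by retinoic acid receptors.
*Tdrd1*: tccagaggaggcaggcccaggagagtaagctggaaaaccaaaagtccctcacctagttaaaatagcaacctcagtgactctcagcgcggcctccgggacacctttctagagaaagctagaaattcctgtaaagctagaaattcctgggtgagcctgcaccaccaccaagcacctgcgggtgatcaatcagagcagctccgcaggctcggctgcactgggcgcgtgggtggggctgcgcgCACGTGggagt
*Tdrd9*: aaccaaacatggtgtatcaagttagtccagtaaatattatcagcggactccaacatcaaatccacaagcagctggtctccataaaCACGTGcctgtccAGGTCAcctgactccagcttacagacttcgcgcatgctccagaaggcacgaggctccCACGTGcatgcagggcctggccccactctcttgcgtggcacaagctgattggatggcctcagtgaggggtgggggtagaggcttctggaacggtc
*Fkbp6*: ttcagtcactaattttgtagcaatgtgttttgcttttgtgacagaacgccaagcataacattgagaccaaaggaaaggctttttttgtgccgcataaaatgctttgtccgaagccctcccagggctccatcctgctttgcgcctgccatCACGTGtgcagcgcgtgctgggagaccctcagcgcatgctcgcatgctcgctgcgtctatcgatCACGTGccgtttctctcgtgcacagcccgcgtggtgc
*Pld6*: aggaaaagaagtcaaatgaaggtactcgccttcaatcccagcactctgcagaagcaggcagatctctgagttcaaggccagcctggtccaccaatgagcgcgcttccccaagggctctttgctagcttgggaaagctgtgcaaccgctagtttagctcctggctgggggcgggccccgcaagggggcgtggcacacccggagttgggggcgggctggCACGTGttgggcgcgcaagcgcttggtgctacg
*Stk31*: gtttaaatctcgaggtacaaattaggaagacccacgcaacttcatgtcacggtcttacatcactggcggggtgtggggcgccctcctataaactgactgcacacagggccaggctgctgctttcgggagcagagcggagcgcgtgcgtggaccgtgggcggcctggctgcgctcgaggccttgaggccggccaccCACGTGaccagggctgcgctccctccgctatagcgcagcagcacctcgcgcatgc
*Mael*: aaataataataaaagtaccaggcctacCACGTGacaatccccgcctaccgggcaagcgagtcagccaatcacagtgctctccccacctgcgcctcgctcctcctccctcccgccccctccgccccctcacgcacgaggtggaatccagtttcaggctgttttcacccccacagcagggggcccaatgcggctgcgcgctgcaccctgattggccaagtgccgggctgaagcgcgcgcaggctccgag

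CACGTG, which reads the same on both strands, was found upstream of 9 of the 25 genes (36%), namely *Ddx4*, *Fkbp6*, *Mael*, *Mov10l1*, *Piwil1*, *Pld6*, *Stk31*, *Tdrd1* and *Tdrd9*, and upstream of 6.86% of the 27025 genes with a window. It occurred in pairs in the windows of *Fkbp6*, *Piwil1* and *Tdrd9*. Of these 9 genes, 7 were called higher and 0 lower in NR vs Veh, and of the 16 genes without it 7 were higher and 1 lower, beside 21.7% and 22.2% of all tested genes. In RA vs Veh, 3 of the 9 were higher and 4 lower, and of the 16 genes without it 0 were higher and 3 lower (all tested genes 19.8% and 23.4%). The element was thus present in genes of both directions. These are counts of letters in a window and say nothing of binding.

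The other motifs, searched on both strands, were less frequent among the genes, and no match overlapped another. The Myb sites CAACTG and CAACGG were found in 3 genes each (12%), beside 12.6% and 4.68% of all genes. The E2F site TTCCCGC was found in 2 genes (8%), *Ddx4* and *Tdrd5*, beside 4.38% of all genes. The STRA8 motif CNCCTCAG, where N is any base, was found in 4 genes (16%), *Fkbp6*, *Gpat2*, *Stk31* and *Tdrd7*, beside 7.39%, and AGGTCA in 2 genes (8%), *Tdrd7* and *Tdrd9*, beside 15.8%. Some windows precede a start that lies inside the annotated gene, so a match there is not upstream of the whole gene. This held for all matches of *Tdrd5*, *Ddx4* and *Piwil1*, the Myb match of *Pld6*, and the Myb and STRA8 matches of *Fkbp6*.

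The 3 PIWI genes each had a pattern of their own. *Piwil2* encodes MILI, the cytoplasmic PIWI protein that cuts transposon transcripts and is made from the fetal germ cell to the round spermatid. Its levels were 198 and 197 CPM in Veh, 172 and 169 CPM in RA, 251 and 253 CPM in NR and 239 and 238 CPM in NRRA. The 4 conditions did not overlap, with the RA libraries at the bottom and those of NR at the top. The log2 difference was -0.21 ± 0.042 (SE, adjusted p = 0.000184) in RA vs Veh, 0.35 ± 0.042 (SE, adjusted p = 1e-07) in NR vs Veh and 0.27 ± 0.041 (SE, adjusted p = 2.59e-06) in NRRA vs Veh. NRRA exceeded RA by 0.49 ± 0.041 (SE, adjusted p = 2.14e-10), while NRRA and NR differed by -0.08 ± 0.040 (SE, adjusted p = 0.126).

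*Piwil4* encodes MIWI2, the nuclear PIWI protein of fetal prospermatogonia that guides DNA methylation to transposons. Its levels were 11.6 and 10.7 CPM in Veh, 9.69 and 11.4 CPM in RA, 15.5 and 14.5 CPM in NR and 10.7 and 10.4 CPM in NRRA. Both NR libraries lay above the 6 others, among which those of RA overlapped with Veh and with NRRA. The fitted log2 difference was 0.42 ± 0.103 (SE, adjusted p = 0.00169) in NR vs Veh and -0.50 ± 0.097 (SE, adjusted p = 0.000126) in NRRA vs NR. It was -0.07 ± 0.109 (SE, adjusted p = 0.64) in RA vs Veh and -0.09 ± 0.105 (SE, adjusted p = 0.51) in NRRA vs Veh. The difference between the effects of RA in the 2 media was -0.43 ± 0.146 (SE, adjusted p = 0.0502) and was not called.

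*Piwil1* encodes MIWI, which carries the piRNAs of pachytene spermatocytes and round spermatids. Its levels were 9.86 and 9.64 CPM in Veh, 11.4 and 12.8 CPM in RA, 9.49 and 9.26 CPM in NR and 11.5 and 12.2 CPM in NRRA. The RA and NRRA libraries overlapped with each other and lay above those of Veh and NR. On the log2 scale the difference was 0.32 ± 0.105 (SE, adjusted p = 0.0157) in RA vs Veh and 0.28 ± 0.103 (SE, adjusted p = 0.0196) in NRRA vs Veh. It was 0.34 ± 0.100 (SE, adjusted p = 0.00672) in NRRA vs NR, and NR and Veh differed by -0.06 ± 0.111 (SE, adjusted p = 0.711). The call in RA vs Veh was lost without RA replicate 2 (0.23, adjusted p = 0.213), the call in NRRA vs Veh without Veh replicate 2 (0.27, adjusted p = 0.0735) or NRRA replicate 2 (0.24, adjusted p = 0.129), and that in NRRA vs NR without NR replicate 2 (0.31, adjusted p = 0.0797) or NRRA replicate 2 (0.30, adjusted p = 0.074). With DESeq2 the adjusted p was 0.0949, 0.131 and 0.0726 in these 3 comparisons.

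Tudor domain proteins bind methylated arginines of PIWI proteins and hold the complexes together in the granules. Of the 10 genes, 7 were called higher and 0 lower in NR vs Veh, beside 21.7% and 22.2% of all tested genes, with a median log2 difference of 0.33. In RA vs Veh 1 was higher and 3 were lower, near the 19.8% and 23.4% of all tested genes, and in NRRA vs NR 2 were higher and 4 lower, beside 21.3% and 22.1%. *Tdrd5*, which is needed for the piRNAs of pachytene spermatocytes and for silencing of retrotransposons, fell most. Its levels were 69.6 and 67.4 CPM in Veh, 31.5 and 33.3 CPM in RA, 88.7 and 87.5 CPM in NR and 34.7 and 33.9 CPM in NRRA. Every library with RA lay below every library without it. In log2 units the difference was -1.08 ± 0.059 (SE, adjusted p = 7.62e-14) in RA vs Veh, -1.0 ± 0.057 (SE, adjusted p = 4.53e-14) in NRRA vs Veh and -1.36 ± 0.055 (SE, adjusted p = 9.19e-17) in NRRA vs NR. In NR vs Veh it was 0.36 ± 0.054 (SE, adjusted p = 3.8e-06), and NRRA and RA differed by 0.08 ± 0.061 (SE, adjusted p = 0.341).

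*Tdrd1*, which binds MILI in the cement between mitochondria, had levels of 93.4 and 87.7 CPM in Veh, 62.4 and 62.7 CPM in RA, 138 and 139 CPM in NR and 79.3 and 83.7 CPM in NRRA. The conditions did not overlap, with RA lowest and NR highest. The log2 difference was -0.53 ± 0.054 (SE, adjusted p = 8.41e-09) in RA vs Veh, 0.61 ± 0.051 (SE, adjusted p = 1.41e-10) in NR vs Veh and -0.77 ± 0.050 (SE, adjusted p = 1.24e-12) in NRRA vs NR. NRRA stood between, with 0.38 ± 0.052 (SE, adjusted p = 1.15e-06) against RA and -0.15 ± 0.052 (SE, adjusted p = 0.0138) against Veh. The last of these calls was lost without Veh replicate 1 (-0.10, adjusted p = 0.109), without NRRA replicate 1 (-0.11, adjusted p = 0.172) and with library totals in place of TMM (-0.04, adjusted p = 0.546).

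*Rnf17*, a RING finger and tudor protein of spermatocytes and spermatids, was higher with RA as well as with NR. Its levels were 42.7 and 52.8 CPM in Veh, 68.1 and 77.5 CPM in RA, 69.4 and 65.8 CPM in NR and 83.4 and 81.4 CPM in NRRA. Both Veh libraries were below the other 6, and the RA and NR libraries overlapped. The fitted log2 difference was 0.62 ± 0.075 (SE, adjusted p = 1.97e-07) in RA vs Veh, 0.50 ± 0.075 (SE, adjusted p = 4.75e-06) in NR vs Veh and 0.79 ± 0.073 (SE, adjusted p = 6.37e-10) in NRRA vs Veh. *Stk31*, a tudor protein with a kinase domain, had levels of 45 and 52 CPM in Veh, 46.7 and 57.6 CPM in RA, 69.7 and 70 CPM in NR and 53.2 and 56.9 CPM in NRRA. The NR libraries were highest, those of NRRA lay above those of Veh, and the RA libraries overlapped with both. On the log2 scale the difference was 0.53 ± 0.076 (SE, adjusted p = 2.63e-06) in NR vs Veh, 0.12 ± 0.078 (SE, adjusted p = 0.235) in RA vs Veh and 0.19 ± 0.077 (SE, adjusted p = 0.0395) in NRRA vs Veh. Offsets for GC content and length turned the last of these to -0.30 and RA vs Veh to -0.24, so no direction is given for *Stk31* in these comparisons. The call in NRRA vs Veh was also lost with DESeq2 (adjusted p = 0.144), with median-of-ratios scaling (0.0685), and without Veh replicate 1 (0.374), NRRA replicate 2 (0.256), NR replicate 1 (0.0584) or NR replicate 2 (0.0561).

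*Tdrd9* and *Tdrd7* were also higher in NR vs Veh. *Tdrd9*, a helicase that works with MIWI2, was at 46.6 ± 1.88 for Veh, 42.8 ± 1.4 for RA, 65.7 ± 0.242 for NR and 66.5 ± 0.833 for NRRA (CPM, mean ± SD, n = 2). It was higher by 0.50 ± 0.058 (SE, adjusted p = 7.98e-08) in NR vs Veh and by 0.64 ± 0.056 (SE, adjusted p = 4.28e-10) in NRRA vs RA, and the NR and NRRA libraries overlapped. *Tdrd7*, a granule protein that the lens also makes, was at 89.6 ± 3.54 for Veh, 80 ± 3.22 for RA, 110.2 ± 4.53 for NR and 101 ± 3.15 for NRRA (CPM, mean ± SD, n = 2). Its log2 difference was 0.30 ± 0.053 (SE, adjusted p = 5.12e-05) in NR vs Veh and 0.34 ± 0.052 (SE, adjusted p = 5.49e-06) in NRRA vs RA, and -0.17 ± 0.054 (SE, adjusted p = 0.0152) in RA vs Veh, where the call was lost without Veh replicate 1 (-0.10, adjusted p = 0.155), RA replicate 2 (-0.12, adjusted p = 0.189) or TMM (-0.06, adjusted p = 0.357).

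*Tdrd3*, which many cell types express and which works with a topoisomerase on RNA, was at 19.4 ± 1.59 for Veh, 21.8 ± 0.615 for RA, 22.9 ± 0.926 for NR and 25.1 ± 0.634 for NRRA (CPM, mean ± SD, n = 2). It was called higher in NRRA vs Veh, by 0.38 ± 0.079 (SE, adjusted p = 0.000172), and this value was 0.06 (adjusted p = 0.507) with offsets for GC content and length. In NR vs Veh it was higher by 0.24 ± 0.082 (SE, adjusted p = 0.0183), a call that was lost without Veh replicate 1 (0.18, adjusted p = 0.141) or NR replicate 1 (0.22, adjusted p = 0.095), with DESeq2 (0.24, adjusted p = 0.0797) and with the offsets (0.04, adjusted p = 0.734). *Tdrd12*, of secondary piRNA production, was at 18.1 ± 0.578 for Veh, 15.5 ± 1.98 for RA, 20.5 ± 2 for NR and 15.8 ± 0.857 for NRRA (CPM, mean ± SD, n = 2). It was called only in NRRA vs NR, at -0.39 ± 0.091 (SE, adjusted p = 0.000981), and not without NR replicate 2 (-0.29, adjusted p = 0.0588).

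*Tdrkh*, which anchors PIWI proteins at mitochondria for trimming, was at 49.7 ± 2.54 for Veh, 53.9 ± 0.916 for RA, 45.5 ± 1.94 for NR and 54.6 ± 1.02 for NRRA (CPM, mean ± SD, n = 2). It was called only in NRRA vs NR, at 0.27 ± 0.058 (SE, adjusted p = 0.000488). Of its exon bases, 36.7% overlap *Oaz3* on the opposite strand, and whether the counting used the strand is not given in the sources used here. *Tdrd6* was at 0.713 ± 0.0974 for Veh, 0.635 ± 0.0334 for RA, 0.886 ± 0.178 for NR and 0.657 ± 0.0699 for NRRA (CPM, mean ± SD, n = 2) and was called in none of the 6 comparisons. Its 12 to 22 counts per library leave SEs of 0.346 to 0.524, so differences of less than about 1 log2 unit were not detectable at this depth.

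The 9 genes of piRNA processing act from the helicase that feeds precursors to the enzymes that cut, trim and methylate them. In NR vs Veh 5 were called higher and 0 lower, beside 21.7% and 22.2% of all tested genes, and in NRRA vs RA 6 were higher and 0 lower, beside 20.9% and 19.4%. In RA vs Veh 1 was higher and 3 were lower, beside 19.8% and 23.4%. *Pld6* encodes MitoPLD, the mitochondrial nuclease that cuts the precursors, and had the largest increase among the 32 genes in NRRA vs Veh. Its levels were 5.35 and 5.52 CPM in Veh, 6.88 and 7 CPM in RA, 8.29 and 8.88 CPM in NR and 14.9 and 12.6 CPM in NRRA. The conditions did not overlap and followed the order Veh, RA, NR and NRRA. In log2 units the difference was 1.33 ± 0.120 (SE, adjusted p = 3.99e-10) in NRRA vs Veh, 0.66 ± 0.134 (SE, adjusted p = 0.000208) in NR vs Veh and 0.67 ± 0.105 (SE, adjusted p = 9.13e-06) in NRRA vs NR. In RA vs Veh it was 0.35 ± 0.139 (SE, adjusted p = 0.0404). This call was lost when any of the 4 libraries of these conditions was left out (0.34 to 0.4). It was also lost with DESeq2 (adjusted p = 0.133) and with no filter on low counts (0.34, adjusted p = 0.0776).

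*Henmt1* encodes the methyltransferase that protects the ends of mature piRNAs. Its levels were 8.97 and 9.54 CPM in Veh, 8.1 and 9.43 CPM in RA, 11.8 and 13.6 CPM in NR and 15.4 and 15.8 CPM in NRRA. The Veh and RA libraries overlapped, those of NR lay above them and those of NRRA above all. The log2 difference was 0.76 ± 0.104 (SE, adjusted p = 6.7e-07) in NRRA vs Veh, 0.47 ± 0.111 (SE, adjusted p = 0.0012) in NR vs Veh and -0.06 ± 0.118 (SE, adjusted p = 0.714) in RA vs Veh. NRRA exceeded NR by 0.29 ± 0.095 (SE, adjusted p = 0.0147). This call was lost without NR replicate 1 (0.18) or NRRA replicate 2 (0.28), and with DESeq2 (0.28, adjusted p = 0.12). Of its exon bases, 14.7% overlap *Gm9857* on the opposite strand. Overlaps were smaller for *Pnldc1* (5.41%), *Piwil4* (2.54%) and *Tdrd5* (2.54%).

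*Pnldc1*, the exonuclease that trims piRNA precursors, had levels of 22.1 and 21.8 CPM in Veh, 16.6 and 17.4 CPM in RA, 38.6 and 36 CPM in NR and 23.3 and 24.1 CPM in NRRA. RA was lowest and NR highest, with no overlap between conditions. The fitted log2 difference was 0.76 ± 0.072 (SE, adjusted p = 2.15e-09) in NR vs Veh, the largest of the 32 genes there, and -0.37 ± 0.080 (SE, adjusted p = 0.000547) in RA vs Veh. With both treatments it was 0.11 ± 0.075 (SE, adjusted p = 0.227) in NRRA vs Veh.

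*Mov10l1*, the helicase of primary piRNA production, had levels of 188 and 179 CPM in Veh, 151 and 152 CPM in RA, 197 and 193 CPM in NR and 200.5 and 205 CPM in NRRA. Both RA libraries lay below all others. On the log2 scale the difference was -0.28 ± 0.045 (SE, adjusted p = 1.34e-05) in RA vs Veh and 0.42 ± 0.044 (SE, adjusted p = 8.15e-09) in NRRA vs RA. It was 0.09 ± 0.044 (SE, adjusted p = 0.0961) in NR vs Veh and 0.15 ± 0.043 (SE, adjusted p = 0.0052) in NRRA vs Veh, where the call was lost without NRRA replicate 2 (0.13, adjusted p = 0.0684).

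*Fkbp6* was at 118 ± 6.39 for Veh, 99.8 ± 1.08 for RA, 151 ± 1.05 for NR and 138 ± 0.468 for NRRA (CPM, mean ± SD, n = 2). It fell in RA vs Veh, at -0.24 ± 0.049 (SE, adjusted p = 0.000233), and rose in NR vs Veh, at 0.36 ± 0.048 (SE, adjusted p = 9.16e-07), and in NRRA vs Veh, at 0.23 ± 0.048 (SE, adjusted p = 0.000184). *Gpat2*, a mitochondrial protein of primary piRNA production, was at 58.4 ± 2.9 for Veh, 57.8 ± 0.0475 for RA, 73.5 ± 4.73 for NR and 71.2 ± 2.15 for NRRA (CPM, mean ± SD, n = 2). In log2 units the difference was -0.02 ± 0.060 (SE, adjusted p = 0.86) in RA vs Veh, and the level rose by 0.34 ± 0.059 (SE, adjusted p = 4.15e-05) in NR vs Veh and by 0.28 ± 0.058 (SE, adjusted p = 0.000152) in NRRA vs Veh.

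The remaining 3 processing genes changed little. *Asz1*, a scaffold on mitochondria, was at 35.1 ± 1.04 for Veh, 34.6 ± 0.446 for RA, 37.8 ± 0.929 for NR and 33.6 ± 1.31 for NRRA (CPM, mean ± SD, n = 2). It was called only in NRRA vs NR, at -0.17 ± 0.062 (SE, adjusted p = 0.0325). This call was lost when any NR or NRRA library was left out (-0.13 to -0.21) and with DESeq2 (-0.19, adjusted p = 0.079). It was also lost with library totals in place of TMM (-0.08, adjusted p = 0.283) and with no filter on low counts (-0.17, adjusted p = 0.0679). *Exd1*, a partner of the ping-pong complex, was at 16.7 ± 1.12 for Veh, 17.6 ± 0.792 for RA, 16.6 ± 1.76 for NR and 17.1 ± 0.411 for NRRA (CPM, mean ± SD, n = 2), and *Gtsf1*, a cofactor of PIWI cleavage, was at 20.1 and 18 CPM in Veh, 19.4 and 20 CPM in RA, 16.7 and 18.9 CPM in NR and 20 and 20 CPM in NRRA. Neither was called in any of the 6 comparisons, and their log2 differences lay between -0.10 and 0.17.

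**Figure D4:**
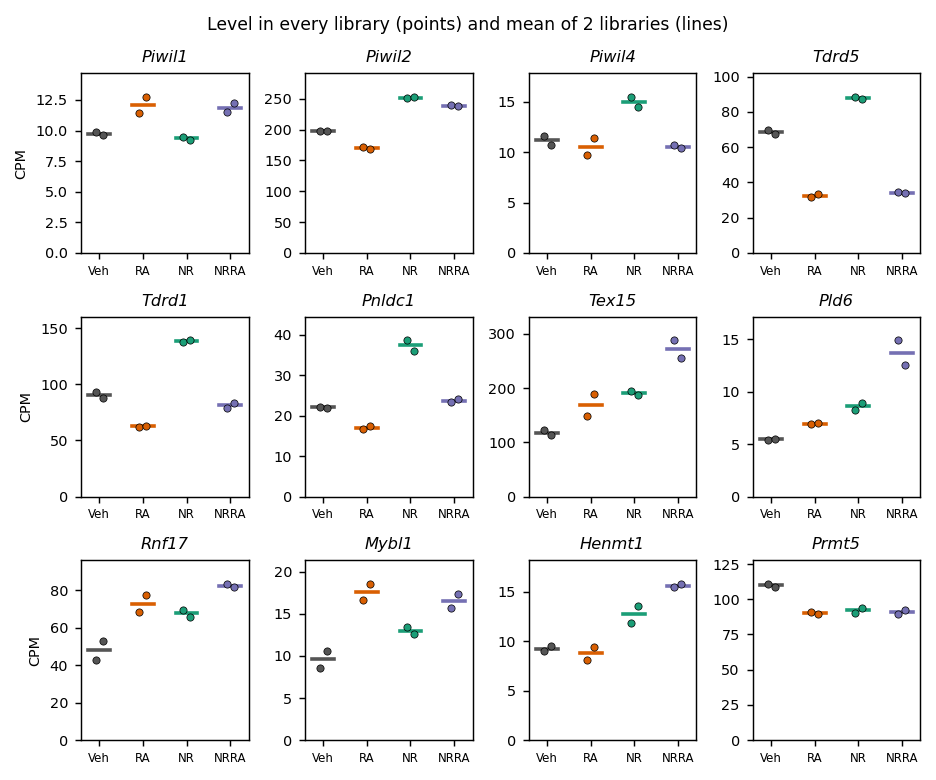
CPM of 12 of the genes in every library (points) with the mean of 2 libraries (lines), by condition, on linear axes from 0. The *Tdrd5* points with RA (31.5 to 34.7 CPM) lie below those without it (67.4 to 88.7 CPM), and those of *Tex15* and *Pld6* are highest in NRRA.

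The germ granule genes *Ddx4* and *Mael* differed from each other after RA. *Ddx4* was at 138 ± 9.78 for Veh, 163 ± 11.7 for RA, 183 ± 6.91 for NR and 183 ± 10.7 for NRRA (CPM, mean ± SD, n = 2). It rose by 0.40 ± 0.056 (SE, adjusted p = 1.52e-06) in NR vs Veh, and by 0.24 ± 0.057 (SE, adjusted p = 0.00117) in RA vs Veh, where the value was -0.03 with offsets for GC content and length and 0.16 (adjusted p = 0.0748) without RA replicate 2. *Mael* was at 111 ± 1.6 for Veh, 90.7 ± 1.4 for RA, 132 ± 2.26 for NR and 99.6 ± 3.66 for NRRA (CPM, mean ± SD, n = 2). It fell in RA vs Veh, at -0.29 ± 0.050 (SE, adjusted p = 3.43e-05), rose in NR vs Veh, at 0.25 ± 0.048 (SE, adjusted p = 0.000121), and was lower in NRRA vs NR, at -0.40 ± 0.047 (SE, adjusted p = 1.04e-07).

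The 2 regulators of pachytene piRNA transcription were both called higher in NR vs Veh and in NRRA vs Veh. *Mybl1* encodes A-MYB, the transcription factor that turns on pachytene piRNA precursors and other meiotic genes in spermatocytes. Its levels were 8.62 and 10.6 CPM in Veh, 16.7 and 18.6 CPM in RA, 13.4 and 12.6 CPM in NR and 15.7 and 17.4 CPM in NRRA. Both Veh libraries were lowest, NR lay above them, and RA and NRRA overlapped at the top. The log2 difference was 0.88 ± 0.108 (SE, adjusted p = 2.12e-07) in RA vs Veh, 0.43 ± 0.114 (SE, adjusted p = 0.003) in NR vs Veh and 0.79 ± 0.106 (SE, adjusted p = 4.77e-07) in NRRA vs Veh. With offsets for GC content and length both of the latter calls were lost (0.02, adjusted p = 0.906 in NR vs Veh, and 0.17, adjusted p = 0.135 in NRRA vs Veh), and that in NR vs Veh was lost without Veh replicate 1 (0.30, adjusted p = 0.0627). *Btbd18*, a nuclear factor for elongation of those precursors, was at 25.9 ± 0.472 for Veh, 26.2 ± 1.1 for RA, 31.3 ± 0.486 for NR and 31.7 ± 1.57 for NRRA (CPM, mean ± SD, n = 2). Its log2 difference was 0.28 ± 0.072 (SE, adjusted p = 0.00257) in NR vs Veh, 0.30 ± 0.070 (SE, adjusted p = 0.000702) in NRRA vs Veh and 0.02 ± 0.073 (SE, adjusted p = 0.847) in RA vs Veh.

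The 4 genes of transposon silencing split. *Tex15*, which encodes a nuclear protein needed for MIWI2-directed methylation and for meiotic recombination, had levels of 123 and 113 CPM in Veh, 148 and 189 CPM in RA, 195 and 186 CPM in NR and 288 and 255 CPM in NRRA. The Veh libraries were lowest and those of NRRA highest, and RA and NR overlapped. The fitted log2 difference was 0.52 ± 0.075 (SE, adjusted p = 2.63e-06) in RA vs Veh, 0.69 ± 0.075 (SE, adjusted p = 2.08e-08) in NR vs Veh and 1.20 ± 0.073 (SE, adjusted p = 1.53e-13) in NRRA vs Veh. The call in RA vs Veh was lost with offsets for GC content and length (0.11, adjusted p = 0.119). *Morc1*, a nuclear ATPase of transposon repression, had levels of 33.1 and 34.4 CPM in Veh, 30.3 and 32.3 CPM in RA, 43.5 and 43.9 CPM in NR and 30.6 and 31.2 CPM in NRRA. The NR libraries lay above the rest, followed by those of Veh, and RA and NRRA overlapped. On the log2 scale the difference was 0.37 ± 0.064 (SE, adjusted p = 3.12e-05) in NR vs Veh, -0.11 ± 0.067 (SE, adjusted p = 0.215) in RA vs Veh and -0.13 ± 0.065 (SE, adjusted p = 0.0978) in NRRA vs Veh.

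*Tex19.1*, which restrains retrotransposons in germ cells and placenta, had levels of 79.7 and 73.3 CPM in Veh, 72.7 and 71.7 CPM in RA, 71.9 and 76.8 CPM in NR and 63 and 64.3 CPM in NRRA. Both NRRA libraries were below the other 6, among which those of NR overlapped with RA and with Veh. In log2 units the difference was -0.26 ± 0.056 (SE, adjusted p = 0.000211) in NRRA vs Veh, and -0.08 ± 0.056 (SE, adjusted p = 0.243) in RA vs Veh and -0.04 ± 0.056 (SE, adjusted p = 0.616) in NR vs Veh were not called. Its close copy *Tex19.2* was at 9.34 ± 0.0236 for Veh, 11.1 ± 0.061 for RA, 10.4 ± 0.756 for NR and 9.62 ± 0.297 for NRRA (CPM, mean ± SD, n = 2) and was called in no comparison. Reads that match both copies can have been left out or given to either, so the values of the pair are uncertain.

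*Prmt5*, the enzyme that makes the symmetric dimethylarginines of PIWI proteins, was the only 1 of the 32 genes called lower in NR vs Veh. Its levels were 111 and 109 CPM in Veh, 90.7 and 89.3 CPM in RA, 90.1 and 94 CPM in NR and 89.5 and 92.5 CPM in NRRA. The Veh libraries were highest, and the 3 treated conditions overlapped. The log2 difference was -0.29 ± 0.050 (SE, adjusted p = 3.2e-05) in RA vs Veh, -0.25 ± 0.050 (SE, adjusted p = 0.000143) in NR vs Veh and -0.27 ± 0.049 (SE, adjusted p = 2.97e-05) in NRRA vs Veh. Its cofactor *Wdr77* had levels of 51 and 55.6 CPM in Veh, 46.9 and 51.7 CPM in RA, 49.1 and 49.6 CPM in NR and 43.9 and 44.5 CPM in NRRA. The NRRA libraries were lowest and the others partly overlapped. The fitted log2 difference was -0.27 ± 0.062 (SE, adjusted p = 0.000532) in NRRA vs Veh, -0.10 ± 0.063 (SE, adjusted p = 0.189) in RA vs Veh and -0.11 ± 0.063 (SE, adjusted p = 0.167) in NR vs Veh. Of the exon bases of *Wdr77*, 28.7% overlap *Gm42890* on the same strand and 6.96% overlap *Atp5f1* on the opposite strand. Many cell types make both proteins, and the part of feeder cell RNA in these values was not tested.

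The change with RA in the diluted medium (NRRA vs NR) was set against the change with RA in complete medium (RA vs Veh) by the interaction of both treatments, the former log2 difference minus the latter, and these comparisons share no library. Of the 32 genes, 2 were called higher and 7 lower, together 28.1%, beside 13% of all tested genes, 6.37% higher and 6.58% lower. With offsets for GC content and length the split was 5 higher and 6 lower, beside 10.6% and 6.95% of all tested genes. *Mybl1* had the largest difference, at -0.53 ± 0.146 (SE, adjusted p = 0.0147), with 0.88 in complete medium and 0.35 under nutrient restriction, but -0.29 (adjusted p = 0.13) with the offsets and an adjusted p of 0.0506 with DESeq2. *Stk31* followed at -0.46 ± 0.106 (SE, adjusted p = 0.00379), with 0.12 in complete medium and -0.34 under nutrient restriction (-0.27, adjusted p = 0.0135, with the offsets), and *Morc1* at -0.39 ± 0.091 (SE, adjusted p = 0.0037), with -0.11 and -0.50. *Rnf17* was at -0.33 ± 0.102 (SE, adjusted p = 0.0312), with 0.62 and 0.29, and lost its call with the offsets (-0.14, adjusted p = 0.162) and with DESeq2 (adjusted p = 0.0546). *Mov10l1* went the other way, at 0.33 ± 0.062 (SE, adjusted p = 0.000431), with -0.28 in complete medium and 0.06 under nutrient restriction.

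The other called interactions were those of *Tdrd1* (-0.23), *Tdrd5* (-0.28), *Ddx4* (-0.24) and *Prmt5* (0.27). That of *Ddx4* was -0.09 (adjusted p = 0.259) with the offsets. *Tdrd5* and *Tdrd1* were lower with RA in both media, by 1.36 and 0.77 on the log2 scale under nutrient restriction. Without RA replicate 2 the interaction of *Mov10l1* was the only 1 of the 9 still called, and the counts were 1 higher and 0 lower. They were 1 and 3 without NR replicate 1, 2 and 2 without NRRA replicate 1, and 1 and 4 without NRRA replicate 2. With DESeq2 2 were higher and 3 lower, beside 3.86% and 4.52% of all tested genes. In each of these fits the shares of all tested genes called in the interaction were also smaller than in the main fit.

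**Figure D5:**
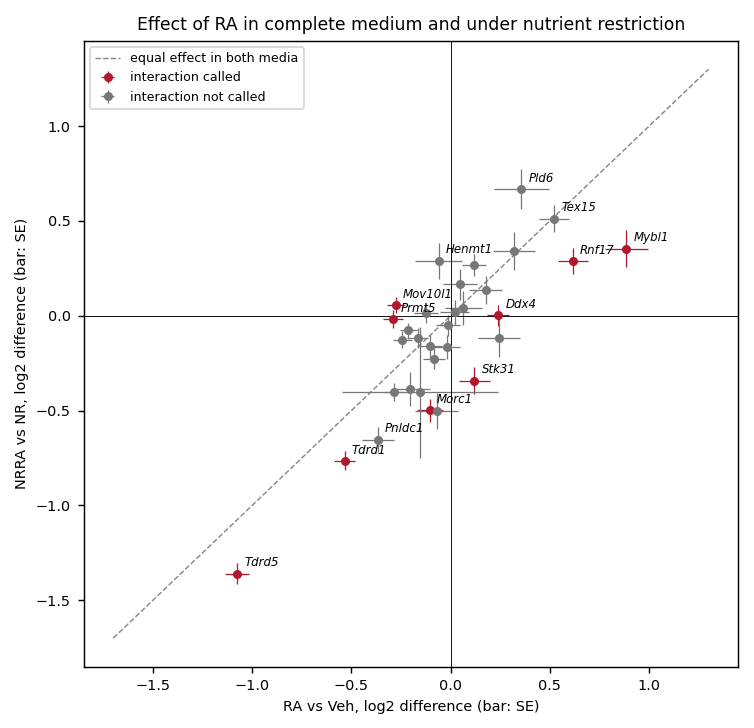
Log2 difference with RA under nutrient restriction (NRRA vs NR, y axis) against that in complete medium (RA vs Veh, x axis) for the 32 genes, with bars of 1 SE and a dashed line of equal effect. Red marks the 9 genes whose interaction was called, of which *Mybl1*, *Rnf17*, *Stk31*, *Morc1*, *Ddx4*, *Tdrd1* and *Tdrd5* lie below the line and *Mov10l1* and *Prmt5* above it.

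Across the conditions, the mean level was highest in NR for 14 of the 32 genes and in NRRA for 11, beside 22.7% and 29.2% of all tested genes. It was lowest in RA for 15 genes, beside 22.1% of all tested genes, and lowest in Veh for 9, beside 28.8%. Genes called higher in NR vs Veh fell into 3 sets by their call in RA vs Veh. *Piwil2*, *Tdrd1*, *Tdrd5*, *Tdrd7*, *Pnldc1*, *Fkbp6* and *Mael* (7 genes) were lower with RA, *Rnf17*, *Pld6*, *Ddx4*, *Mybl1* and *Tex15* (5 genes) were higher, and *Piwil4*, *Tdrd3*, *Tdrd9*, *Stk31*, *Gpat2*, *Henmt1*, *Btbd18* and *Morc1* (8 genes) were not called. Of all tested genes, 23.4% were lower and 19.8% higher in RA vs Veh, and their split among genes higher in NR was not computed. The sets hold for the main fit only. The RA vs Veh calls of *Tdrd7*, *Pld6*, *Ddx4* and *Tex15* were lost under at least 1 alternative. So were the NR vs Veh calls of *Tdrd3* and *Mybl1*. The span between the highest and the lowest condition ranged from 1.06-fold for *Exd1* to 2.72-fold for *Tdrd5*.

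Summed levels of cell type markers differed between the conditions. The summed level of the 32 genes was 1843 to 1857 CPM in Veh, 1718 to 1803 in RA, 2270 to 2282 in NR and 2153 to 2160 in NRRA. That of 7 germ cell markers (*Dazl*, *Ddx4*, *Dppa4*, *Tex101*, *Utf1*, *Sall4* and *Dnd1*), of which *Ddx4* is also among the 32, was 717 to 736 CPM in Veh, 861 to 919.9 in RA, 817 to 845 in NR and 977 to 992 in NRRA. Of these markers, 3 were called higher and 0 lower in NR vs Veh, 4 higher and 1 lower in RA vs Veh, and 4 higher and 2 lower in NRRA vs Veh. Marker counts are to be read beside all tested genes, of which 21.7% were higher and 22.2% lower in NR vs Veh. These shares were 19.8% and 23.4% in RA vs Veh, and 30.1% and 28.7% in NRRA vs Veh. The sum of 12 fibroblast markers was 22167 to 22367 CPM in Veh, 17780.0 to 19133 in RA, 34294 to 35662 in NR and 27538 to 28336 in NRRA, with 9 of 12 higher and 2 lower in NR vs Veh, 0 and 8 in RA vs Veh, and 7 and 5 in NRRA vs Veh. Sums of 10 markers of undifferentiated spermatogonia were 907 to 975 CPM in Veh, 343 to 352 in RA, 794 to 813 in NR and 167 to 168 in NRRA, and those of 8 markers of differentiation and meiotic entry were 182 to 189, 1059 to 1071, 208 to 213 and 1523 to 1571. Of the 10, 2 were called higher and 6 lower in NR vs Veh, 0 and 9 in RA vs Veh, and 0 and 9 in NRRA vs Veh. Of the 8, 6 were higher and 1 lower in NR vs Veh, with 4 higher by at least 2-fold. The counts for these 8 were 6 and 0 in RA vs Veh, and 7 and 1 in NRRA vs Veh. Sertoli cell (12.1 to 45.4 CPM), Leydig cell (5.77 to 14.9), macrophage (89.1 to 131) and spermatid markers (0.835 to 1.34) were low, and no list had a measured marker at 0 in every library. The part of these differences in the results for the 32 genes was not tested.

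Related genes outside the 32 were counted in 5 lists, to be read beside the shares of all tested genes called higher and lower, which were 21.7% and 22.2% in NR vs Veh, 19.8% and 23.4% in RA vs Veh, and 30.1% and 28.7% in NRRA vs Veh. Of 20 tested genes of nuclear transposon silencing (DNA methylation, histone methylation and repressor complexes), 8 were called higher and 4 lower in NR vs Veh, 6 and 9 in RA vs Veh, and 9 and 9 in NRRA vs Veh. Of 13 genes of the Argonaute and microRNA machinery, 7 were higher and 4 lower in NR vs Veh, 3 and 5 in RA vs Veh, and 4 and 5 in NRRA vs Veh. Of 9 tested genes that restrict retroelements in the cytosol, 5 were higher and 0 lower in NR vs Veh, 0 and 4 in RA vs Veh, and 3 and 2 in NRRA vs Veh. Of 15 germ granule and germline RNA-binding genes, 10 were higher and 1 lower in NR vs Veh, 5 and 7 in RA vs Veh, and 6 and 6 in NRRA vs Veh. Of 8 genes of arginine methylation (*Prmt1* and cofactors and substrates of PRMT5, most of them of the splicing machinery), 0 were higher and 6 lower in NR vs Veh, 0 and 5 in RA vs Veh, and 0 and 7 in NRRA vs Veh.

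Of these lists, 8 genes with the largest changes of at least 2-fold are given by name. *Spocd1*, the partner of MIWI2 in methylation of transposons, had levels of 9.61 and 7.87 CPM in Veh, 3.31 and 3.12 CPM in RA, 14.9 and 16.2 CPM in NR and 2.54 and 2.63 CPM in NRRA. It was lowest in NRRA, then RA, and highest in NR, with no overlap between conditions, and the log2 difference was -1.45 ± 0.147 (SE, adjusted p = 9.68e-09) in RA vs Veh, 0.83 ± 0.111 (SE, adjusted p = 7.87e-07) in NR vs Veh and -2.59 ± 0.129 (SE, adjusted p = 5.68e-15) in NRRA vs NR. *Dnmt3l*, the cofactor of new DNA methylation, had levels of 4.21 and 3.28 CPM in Veh, 2.19 and 1.98 CPM in RA, 3.57 and 3.99 CPM in NR and 1.5 and 1.16 CPM in NRRA. It was lower in RA vs Veh (-0.86 ± 0.206 (SE, adjusted p = 0.00133)) and in NRRA vs Veh (-1.50 ± 0.216 (SE, adjusted p = 1.2e-06)), while NR and Veh overlapped.

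*Nanos2*, a translational repressor of undifferentiated spermatogonia, had 68 and 68 counts in Veh, 77 and 93 in NR, 3 and 1 in RA, and 2 and 2 in NRRA. The ratio of RA to Veh was 0.0239, with an exact interval of 0.00642 to 0.0626 at 95% for counting error only. Its exons overlap the antisense gene *Gm45058* over 49% of their length. *Nanos3*, its relative, was at 17.2 and 14.9 CPM in Veh, 1.38 and 2.22 CPM in RA, 19.7 and 21.7 CPM in NR and 1.86 and 1.06 CPM in NRRA, with -3.10 ± 0.172 (SE, adjusted p = 8.77e-14) in RA vs Veh and -3.48 ± 0.172 (SE, adjusted p = 2.04e-15) in NRRA vs Veh. Both genes were thus low in the 4 libraries with RA.

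*Meioc*, which acts with an RNA helicase at the entry into meiosis, was at 12.3 and 12.3 CPM in Veh, 34.8 and 42.7 CPM in RA, 12.4 and 13.2 CPM in NR and 35.9 and 34.9 CPM in NRRA, and *Zfp809*, a zinc finger protein that silences retroviruses, was at 21.1 and 26.5 CPM in Veh, 68.5 and 68.7 CPM in RA, 26.7 and 27.1 CPM in NR and 61.1 and 58.8 CPM in NRRA. Both were high in the 4 libraries with RA, with 1.67 ± 0.093 (SE, adjusted p = 8.96e-14) and 1.53 ± 0.074 (SE, adjusted p = 4.7e-15) in RA vs Veh, and NR and Veh differed by 0.06 ± 0.110 (SE, adjusted p = 0.685) and 0.18 ± 0.082 (SE, adjusted p = 0.0811). *Ago4*, a germline Argonaute, was at 5.35 and 5.21 CPM in Veh, 9.12 and 8.43 CPM in RA, 7.42 and 7.37 CPM in NR and 14.3 and 14.3 CPM in NRRA, with 1.43 ± 0.112 (SE, adjusted p = 2.27e-11) in NRRA vs Veh. *Bst2*, tetherin, which holds back budding viruses, was at 135 and 121 CPM in Veh, 128 and 124 CPM in RA, 247 and 224 CPM in NR and 261 and 263 CPM in NRRA. It was high in the 4 libraries under nutrient restriction, with 0.88 ± 0.053 (SE, adjusted p = 1.99e-13) in NR vs Veh and -0.02 ± 0.054 (SE, adjusted p = 0.797) in RA vs Veh.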

How the data were processed

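The deposited values are raw counts of reads per gene that the authors made from oligo-dT selected, stranded RNA libraries sequenced on a NovaSeq, 1 column for each of the 8 libraries. The submitters' processing notes name bcl2fastq, STAR 2.6.1c, featureCounts 1.6.4 and mm10. The strand setting and annotation release are not given in the sources used here.

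Genes were filtered with filterByExpr, scaled by TMM and fitted with edgeR 4.0.16 (R 4.3.3; quasi-likelihood, 4 groups, all 8 libraries, 4 residual degrees of freedom), with p-values adjusted by Benjamini-Hochberg over 20477 genes. DESeq2 1.42.0 was an alternative, beside other scalings, no filter, a fold of at least 2, a replicate block, GC content and length offsets, and leaving out each library. The code was tested on simulated data. Total counts of 19261333 to 30023585 make 1 count worth at least 0.0321 CPM. Replicates differed by more than sampling noise. Intervals cover counting error only. Exon overlaps and lengths came from GENCODE M21, and upstream windows from RefSeq (GRCm38.p6). Figures were drawn with matplotlib 3.10.9.

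The 32 genes and all lists were chosen with earlier results of these data known. All 32 were named. Every library was given for the PIWI genes, for the genes with the largest changes called in each comparison, and for related genes with the largest changes of at least 2-fold.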

Additional observations from a re-analysis of the deposited data

Results flagged for a closer look

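For 9 of the 32 genes the effect of RA under nutrient restriction (NRRA vs NR) differed from that in complete medium (RA vs Veh) by edgeR's quasi-likelihood interaction test with Benjamini-Hochberg adjustment. The difference of the log2 effects was negative for *Mybl1* (-0.53, adjusted p = 0.0147), *Stk31* (-0.46, adjusted p = 0.00379), *Morc1* (-0.39, adjusted p = 0.0037), *Rnf17* (-0.33, adjusted p = 0.0312), *Tdrd5* (-0.28, adjusted p = 0.0196), *Ddx4* (-0.24, adjusted p = 0.0453) and *Tdrd1* (-0.23, adjusted p = 0.0348). It was positive for *Mov10l1* (0.33, adjusted p = 0.000431) and *Prmt5* (0.27, adjusted p = 0.0088). *Mov10l1* was the only 1 of the 9 whose call held in every alternative other than a fold of at least 2, and without RA replicate 2 it alone was called. The sum of fibroblast markers was 17780.0 to 22367 CPM in complete medium and 27538 to 35662 CPM under nutrient restriction, and its part in these differences was not tested.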

How the results depend on the processing

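Of 104 called differences of the 32 genes, 65 kept direction and call in every alternative other than a fold of at least 2, and 2 took the opposite sign in at least 1. With a fold of at least 2, 0 were higher and 1 lower in RA vs Veh, 0 and 0 in NR vs Veh, 2 and 0 in NRRA vs Veh, 0 and 0 in NRRA vs RA, 0 and 1 in NRRA vs NR, and 0 and 0 in the interaction. With library totals without TMM, 10 were higher in RA vs Veh and 1 lower in NRRA vs RA, and the median log2 difference was 0.037 in RA vs Veh, 0.255 in NRRA vs Veh and 0.017 in NRRA vs NR. With offsets for GC content and length, 14 were lower in RA vs Veh, 4 in NR vs Veh, 10 in NRRA vs Veh and 4 in NRRA vs RA, 5 were higher in the interaction, and the median was 0.214 in NR vs Veh and 0.019 in NRRA vs RA. With DESeq2, 1 was lower in NRRA vs RA (median 0.089), beside 16.4% of all tested genes, and 3 in the interaction, beside 4.52%. The NRRA vs RA median was 0.088 with median-of-ratios scaling and 0.126 with no filter, where 1 gene was lower.

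The replicate numbers do not pair the libraries (correlations of deviations -0.033 to 0.023), and the replicate block alone left the counts as they were (20 higher and 1 lower in NR vs Veh, median 0.317). The replicate block with GC content and length offsets gave 14 lower in RA vs Veh, 4 in NR vs Veh (median 0.211), 10 in NRRA vs Veh and 4 in NRRA vs RA (median 0.02).

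Leaving out 1 library gave 3 to 8 higher and 8 to 9 lower in RA vs Veh (median -0.082 to -0.013), 19 to 20 and 1 to 2 in NR vs Veh (0.313 to 0.358), 12 to 16 and 4 to 6 in NRRA vs Veh (0.124 to 0.147), 11 to 16 and 0 to 2 in NRRA vs RA (0.065 to 0.196), 4 to 7 and 9 to 14 in NRRA vs NR (-0.1 to -0.048), and 1 to 2 and 0 to 8 in the interaction (-0.134 to -0.032). A lone library of a condition was then assumed to vary like the other conditions.

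Of the 88 differences not called, 42 took the opposite sign under at least 1 alternative without being called with that sign, and 4 were called with it. These 4 and the 2 called values whose sign turned were *Stk31* in RA vs Veh (-0.24 with the offsets, -0.25 with block and offsets, -0.05 without RA replicate 2 and up to 0.25 without another library) and NRRA vs Veh (-0.3 and -0.3 with the offsets), *Ddx4* in RA vs Veh (-0.03 and -0.03), *Asz1* in NR vs Veh (-0.2 and -0.2), *Ddx4* in NRRA vs NR (-0.02 with DESeq2 and with median-of-ratios scaling, -0.12 with the offsets, -0.06 to 0.06 without 1 library) and the interaction of *Tex15* (0.22 and 0.21 with the offsets, -0.16 to 0.18 without 1 library). The cause was not tested.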

Other observations

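Of the related genes, *Dnmt3c* and *Trex1* were below the filter on low counts and are named after their values were seen. *Dnmt3c*, a DNA methyltransferase of rodents that methylates young retrotransposons in the male germ line, had 0 counts in every Veh and NR library, 4 and 7 counts in RA and 5 and 10 counts in NRRA. *Trex1*, an exonuclease that removes retroelement DNA, had 0 counts in all 8 libraries, and its exons lie 100% within those of *Atrip* on the same strand.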
